A study of Mus musculus with 6 samples.

Results

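The regions described here were the binding sites of phosphorylated Smad1/5 in embryonic mouse molar tooth germ that lay far from genes. A peak was counted as far when its summit fell outside every protein-coding gene of the mm10 RefSeq annotation and over 50 kb from the nearest start or end of such a gene. By this rule 6941 of the 34048 peaks on the 19 autosomes were far, which was 20.4% of them (exact 95% binomial interval 19.96 to 20.8%). The whole list held 35476 peaks, and the 4 lists of the series held 123182. The study profiled wildtype CD1 mouse embryos at stage E13.5 by chromatin immunoprecipitation followed by sequencing (ChIP-seq), with 1 library from molar tooth germ and 1 from limb for each of 2 antibodies, against pSmad1/5 and against Smad4. All embryos carried the same wildtype genotype and no treatment is named. The labels give no number of embryos per library, and peaks of molar tooth germ cannot be assigned to its epithelium or its mesenchyme. With 1 library per tissue and antibody, tissue and library cannot be told apart, and every interval given here covers counting error only.

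Bone morphogenetic proteins (BMPs) bind receptor kinases at the cell surface, which phosphorylate Smad1 and Smad5. The phosphorylated proteins join Smad4, enter the nucleus and bind DNA at GC-rich elements next to target genes or at distant enhancers. Genes that direct development often stand beside long stretches without other coding genes, called gene deserts, and many known enhancers of such genes lie inside them. In the tooth germ at this stage BMP ligands pass between epithelium and mesenchyme, and Bmp4 from the mesenchyme is needed for the bud to become a cap.

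The DNA under a far peak is shown where the peak reached into the promoter window of a long noncoding RNA (lncRNA) gene, which was the case for 24 windows. Windows run from 250 bases before to 50 after the annotated start and were taken from RefSeq on GRCm38.p6. There were 3276 such windows over 50 kb from coding genes, and 15 of them (0.458%) held the summit of a far peak. The 3 windows printed here were chosen after their values were seen, for a peak of high score or a Smad-type motif inside the peak, and letters in capitals mark the peak. Gm12830 lies on the plus strand at chr4:114821470-114821769, in the desert from Trabd2b to Foxd2, and its peak had a score of 5.40. Lncpint, a noncoding RNA induced by p53, lies on the minus strand at chr6:31218425-31218724, between Klf14 and Mkln1. Gm34061 lies on the plus strand at chr14:99578216-99578515, between the zinc finger genes Klf5 and Klf12.
Gm12830: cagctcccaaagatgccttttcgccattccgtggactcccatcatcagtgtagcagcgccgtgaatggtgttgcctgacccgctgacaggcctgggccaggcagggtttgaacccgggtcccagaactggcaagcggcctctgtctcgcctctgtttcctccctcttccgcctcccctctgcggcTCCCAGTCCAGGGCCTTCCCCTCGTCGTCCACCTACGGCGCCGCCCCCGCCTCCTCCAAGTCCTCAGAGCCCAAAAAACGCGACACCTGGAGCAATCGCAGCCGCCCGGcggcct
Lncpint: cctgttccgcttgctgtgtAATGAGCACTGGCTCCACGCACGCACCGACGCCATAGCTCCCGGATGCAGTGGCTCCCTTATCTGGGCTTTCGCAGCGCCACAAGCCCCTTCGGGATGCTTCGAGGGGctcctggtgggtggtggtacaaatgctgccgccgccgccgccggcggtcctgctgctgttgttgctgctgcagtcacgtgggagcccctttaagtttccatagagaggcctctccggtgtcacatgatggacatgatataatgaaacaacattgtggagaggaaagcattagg
Gm34061: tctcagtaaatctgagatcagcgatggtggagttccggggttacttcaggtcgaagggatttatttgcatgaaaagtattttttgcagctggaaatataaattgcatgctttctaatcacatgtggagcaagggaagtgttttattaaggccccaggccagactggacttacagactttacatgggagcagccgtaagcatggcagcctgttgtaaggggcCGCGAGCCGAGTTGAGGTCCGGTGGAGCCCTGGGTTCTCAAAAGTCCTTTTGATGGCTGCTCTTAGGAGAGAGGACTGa
The Smad1/5-type letters GGCGCC, read on both strands, fell inside the peak of Gm12830. The related letters GGAGCC, also read on both strands, fell inside the peaks of Lncpint and Gm34061. Across all 31396 promoter windows of the table, 12.1% held GGCGCC and 31.2% held GGAGCC. Of the 15 windows with a far summit, 1 held GGCGCC and 5 held GGAGCC, while the shares among far lncRNA windows were 1.74% and 17.7%. The windows with a summit were also richer in G and C, with a median of 51.7% against 45.7%. The palindrome GTCTAGAC was in 0 of the 15 windows (0.223% of all promoter windows), the Smad-box letters CAGAC in 8 (49.6% of all) and the homeobox core TAAT in 10 (57.9% of all), each read on both strands. Among far lncRNA windows these shares were 0.244%, 52.1% and 80.6%, beside 0%, 53.3% and 66.7% of the 15. These matches are a description of letters in a window and not of a binding site.

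Several far peaks lay beside microRNA hairpins, which are the short precursors of RNAs that repress messenger RNAs through a seed at bases 2 to 8. RefSeq placed 135 autosomal hairpins over 50 kb from coding genes, and 16 of them (11.9%) had a far summit within 2 kb. Over all 919 autosomal hairpins 17 had one, from 12 summits, since neighbouring hairpins can share 1 peak. The 50 kb rule leaves no far summit beside hairpins in or close to coding genes. The share of desert DNA within 2 kb of a far summit is not given here. Mature sequences are printed for hairpins near a far summit, chosen after their distances were seen, with the seed in capitals.
mmu-miR-29a-3p: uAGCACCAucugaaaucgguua
mmu-miR-29b-3p: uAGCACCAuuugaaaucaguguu
mmu-miR-129-2-3p: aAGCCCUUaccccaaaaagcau
mmu-miR-101a-3p: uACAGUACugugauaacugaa
mmu-miR-137-3p: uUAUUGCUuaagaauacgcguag
The miR-29 pair, known to repress collagen genes, shares the seed AGCACCA and 1 peak of score 2.61, whose summit lay 57 bp from the Mir29b-1 hairpin and 403 bp from that of Mir29a. Both hairpins lie on chromosome 6 in the same desert as Lncpint. The peak at Mir129-2 (score 3.35) had its summit 35 bp from the hairpin, and 46 bp from the Mir129b hairpin on the opposite strand of the same locus. At Mir101a the distance was 208 bp and the score 3.85. At Mir137, whose microRNA is abundant in neurons, the summit lay 574 bp away, and this peak of score 3.45 also overlapped a limb Smad4 peak. A peak of score 3.06 lay 130 bp from Mir382 and 498 bp from Mir134, both in the imprinted domain between Rtl1 and Dio3.

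The number of far peaks depended first on how low the authors' list reached on each chromosome. The deposited enrichment score, which is the authors' own value per peak, went down to 2 on 7 autosomes (1, 3, 6, 12, 13, 14 and 16) and to 3 on the other 12. The 7 autosomes held 5362 far peaks, 77.3% of all, at 11.3 to 15.9 per Mb of desert. The other 12 held 1579, at 2.23 to 3.73 per Mb. Restricted to a score of 3 or more, densities ran from 1.95 to 3.73 per Mb over all 19 autosomes. The far share was 25.1% (24.5 to 25.7%) on the 7 autosomes and 12.4% (11.9 to 13.03%) on the 12. Results are therefore given within both sets of autosomes, relative to the level of the same chromosome, or for scores of 3 or 4 and more.

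**Figure D1:**
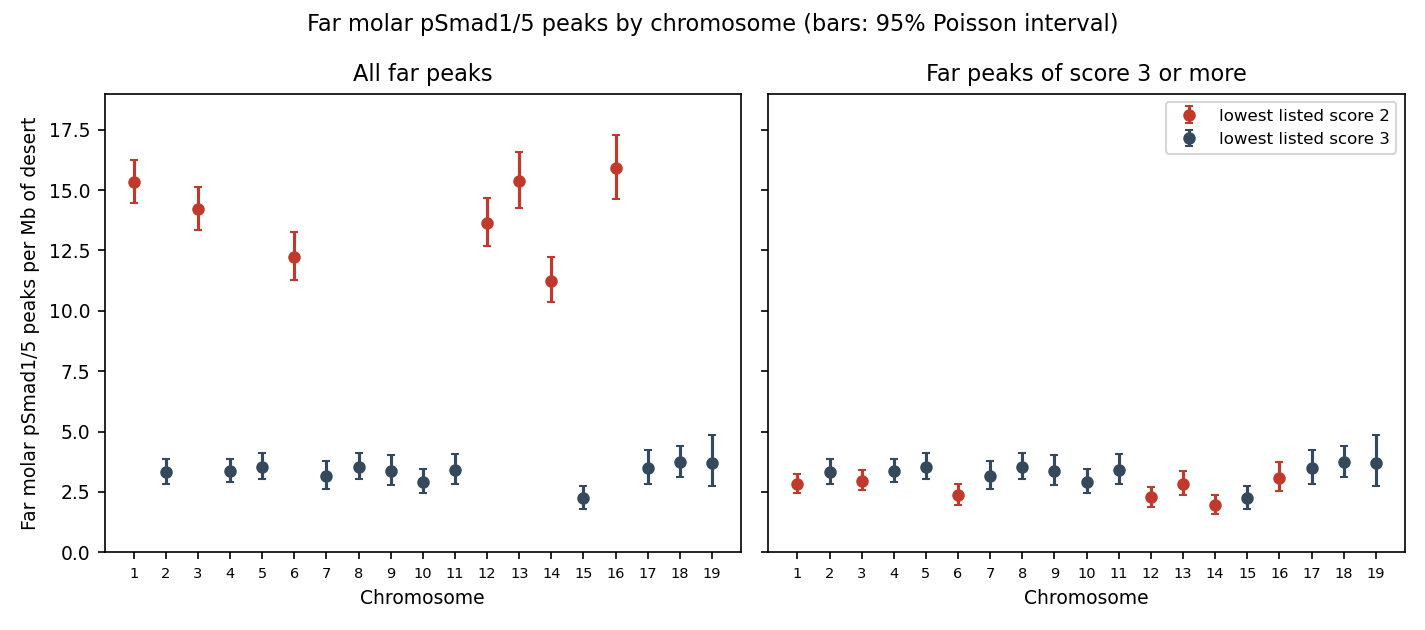
Far molar pSmad1/5 peaks per Mb of desert (y axis) on each autosome (x axis), for all far peaks on the left and for those with a score of 3 or more on the right. Points are counts over desert length, bars are exact 95% Poisson intervals, and colours give the lowest score listed on the chromosome. The 7 autosomes whose list reaches 2 stand at 11.3 to 15.9 per Mb on the left and fall among the others on the right.

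Chromosome 12, which carries Bmp-responsive Id2 and the Rtl1 to Dio3 domain, had a far share of 29.4%, with 744 far peaks. Chromosome 13, home of Msx2, Id4 and the Irx1 cluster, had 693 far peaks (28.8%). At a score of 3 or more their shares were 21.6% and 24.2%. Among the 12 autosomes, chromosome 11 had the lowest share, 8.60%, and chromosome 18 the highest, 21.6%. Their densities were close, at 3.42 (2.83 to 4.09) and 3.73 (3.12 to 4.41) per Mb, and so was their desert length, 34.8 and 36.2 Mb. Chromosome 11 held 1384 peaks in all and chromosome 18 held 624, so these shares differed with the number of peaks that were not far. Chromosome 15 had the lowest density of the 12, 2.23 per Mb (1.81 to 2.73), and at a score of 3 or more chromosome 14 stood at 1.95 (1.59 to 2.38).

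Far peaks were of modest score and narrow. Their median score was 2.64 against 3.07 for the other peaks of the list. Within the sets of autosomes the medians were 2.45 against 2.52 and 3.42 against 3.45. The median width was 64 bp against 63 bp, and the middle range of far widths ran from 55 to 78 bp. A score of 3 or more was reached by 2581 far peaks, 4 or more by 471 and 5 or more by 65. The authors' p-value fell with the score: 7.44% of far peaks with a score from 2 to 2.5 had a p-value under 1e-05, and 73.8% of those with a score of 5 or more did.

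The highest-scoring far peaks stood beside genes of varied function. The peak between Fam169b and Arrdc4 on chromosome 7 (chr7:68555742-68555817) had a score of 7.71 and an authors' p-value of 1.11e-09, and lay 181.2 kb from Arrdc4, an arrestin-domain gene. The one between Hrh4, a histamine receptor gene, and Zfp521 on chromosome 18 had the top score, 7.73. A peak 126.1 kb from Topaz1, a gene of the male germ line, scored 7.29 with a p-value of 1.23e-12. These 3 combined a high score with a low p-value. The peak between Dnaaf6 and Khdrbs2 scored 7.62, but its p-value of 0.000997 lay at the edge of the list. Another 52.9 kb from the kinase gene Map4k3 scored 6.67 with a p-value of 2.07e-14. Rhob, which encodes a small GTPase induced by growth factors, had a peak of 6.34 at 59.1 kb, and the Notch effector gene Rbpj shared a desert with Smim20 and a peak of 6.47. The other 3 of the first 10 lay between Megf9 and Gm11232 (7.12), Trim33 and Syt6 (6.12), and Tex29 and A230072I06Rik (5.99). Trim33 encodes a ubiquitin ligase that acts on Smad4, and its peak lay 54.9 kb away. None of these 10 peaks overlapped a peak of the other 3 lists.

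Distance from genes ran over a wide range. The median far peak lay 178.8 kb from the nearest coding gene, 5044 of the 6941 (72.7%) lay over 100 kb away, 1226 over 500 kb and 387 over 1 Mb. The most distant lay between the protocadherin genes Pcdh20 and Pcdh9 on chromosome 14, 2226.58 kb from Pcdh20, with a score of 3.02. Just inside the limit were peaks 50.005 kb from Ampd3, 50.022 kb from Sptssb, 50.105 kb from Pmepa1, 50.120 kb from Trpc7 and 50.139 kb from Glul. Their scores were 3.12, 2.71, 4.02, 3.69 and 4.26. Just outside it were peaks 49.970 kb from Ctdp1, 49.930 kb from Calb1, 49.927 kb from Tmem212, 49.885 kb from Tpd52 and 49.867 kb from Uxs1, with scores of 3.58, 3.10, 2.24, 2.51 and 2.31. Pmepa1 encodes an inhibitor of TGF-beta signalling that binds receptor-regulated Smads. Where RefSeq gave the strand of the nearest gene, 50.1% (48.8 to 51.4%) of 5653 far peaks were nearest to the start of that gene, and 52.8% of the desert length was.

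Peak density fell steadily with distance from genes and did not reach a plateau at 50 kb. On the 7 autosomes listed down to a score of 2 it was 30.2 per Mb inside genes and 23.9 within 50 kb. It then went from 18.04 at 50 to 100 kb through 16.3, 12.6 and 10.04 to 8.88 over 1 Mb away. On the 12 autosomes the values were 12.9, 8.26, 4.69, 3.56, 2.82, 2.14 and 1.84. Far DNA thus held 0.503 and 0.293 times the density of DNA inside or within 50 kb of genes.

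At a score of 4 or more, a level that every one of the 4 lists reached on every autosome, the fall within far DNA was shallower for molar pSmad1/5 than in limb. From 50 to 100 kb there were 0.824 far molar pSmad1/5 peaks per Mb, and over 1 Mb away 0.281, a ratio of 2.93 (exact interval 1.83 to 4.94; 151 and 20 peaks). For limb pSmad1/5 the same ratio was 16.2 (6.21 to 60.2), from 167 and 4 peaks. The intervals of the molar and limb pSmad1/5 libraries did not overlap. For molar Smad4 the ratio was 5.00 (3.56 to 7.23), whose interval overlapped that of molar pSmad1/5, and for limb Smad4 it was 9.88 (5.11 to 21.9). Over all deposited scores the ratios were 1.90 (1.70 to 2.13) for molar pSmad1/5, 3.90 (3.40 to 4.48) for molar Smad4, 10.9 (7.86 to 15.4) for limb pSmad1/5 and 13.1 (9.40 to 18.8) for limb Smad4. No replicate shows whether this gap belongs to the tissue or to the library.

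**Figure D2:**
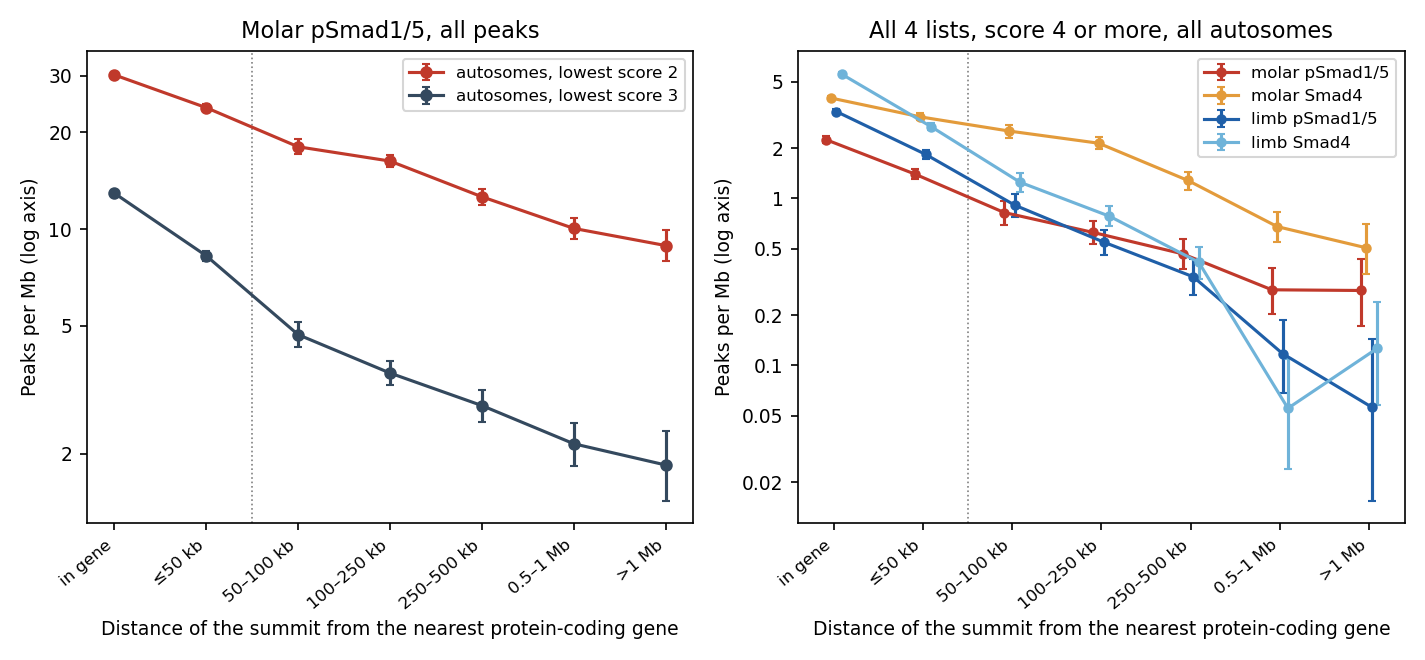
Peaks per Mb (y axis, log scale) by distance of the summit from the nearest protein-coding gene (x axis), with exact 95% Poisson intervals; the dotted line marks 50 kb. On the left all molar pSmad1/5 peaks fall from 30.2 to 8.88 per Mb on autosomes with a lowest score of 2 and from 12.9 to 1.84 on the others. On the right peaks with a score of 4 or more are shown for the 4 lists, where the molar pSmad1/5 line falls least beyond 50 kb (ratio 2.93) and the limb pSmad1/5 line most (16.2).

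To place the far peaks among genes, a desert was taken as a gap of over 100 kb between neighbouring coding genes, and its core as that gap without 50 kb at each side. There were 2495 such deserts with 862.9 Mb of core, and 6934 of the 6941 far peaks lay in them, the other 7 beyond the outermost gene of a chromosome. A far peak was present in 1387 deserts (55.6%), of which 448 held a lone peak, 437 held 5 or more and 193 held 10 or more. Only 189 deserts (7.58%), with 28.6% of the core length, held 50% of the far peaks. Of the 225 deserts with a core of 1 Mb or more, 206 held one, and several of those without were flanked by unnamed predicted genes and were empty in all 4 lists, such as LOC620639 to Cdk6 with 2316 kb. Others without a far molar pSmad1/5 peak were Adgrl3 to Tecrl (1350 kb) and Cdh10 to Cdh12 (1333 kb), the latter with 4 molar Smad4 peaks.

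The deserts with the largest counts were long, and several lay beside genes of neuronal adhesion. The gap from Cntnap5b, a contactin-associated protein gene, to the cadherin gene Cdh20 on chromosome 1 came first with 57 far peaks over 4178 kb of core. Of these 12 scored 3 or more and 3 scored 4 or more, and 39 lay over 1 Mb from both genes. The same desert held 24 molar Smad4 peaks, 0 limb pSmad1/5 peaks and 1 limb Smad4 peak. Next came Klhl29 to Apob (45 far peaks, beside 31, 2 and 6 in the other lists in the same order) and Ncam2 to Mrpl39 (45, beside 11, 0 and 1). Ncam2, a neural cell adhesion gene, has deserts on both sides: Tmprss15 to Ncam2 held 39, so that 84 far peaks flanked this gene. The latrophilin gene Adgrl2 likewise lay between Ttll7 to Adgrl2 (40) and Adgrl2 to Adgrl4 (41). Prmt6 to Amy2b (44), Olfm4 to Pcdh17 (42), Slc39a10 to Tmeff2 (40) and Dsel to Cntnap5a (37) made up the first 10.

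All of these 10 lay on autosomes listed down to a score of 2, and their densities, 9.72 to 23.1 per Mb, were 0.649 to 1.62 times the level of their chromosomes. They were long rather than dense. Density went down with length: deserts with a core under 100 kb held 11.7 far peaks per Mb, those of 100 to 500 kb 10.5, 500 kb to 1 Mb 8.54, 1 to 2 Mb 6.28 and over 2 Mb 6.03. On the 7 autosomes the first and last of these were 19.2 and 9.69, and on the 12 they were 5.80 and 2.04. Limb pSmad1/5 went from 8.59 to 0.747 per Mb across the same classes, limb Smad4 from 9.32 to 0.676 and molar Smad4 from 14.1 to 3.93.

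**Figure D3:**
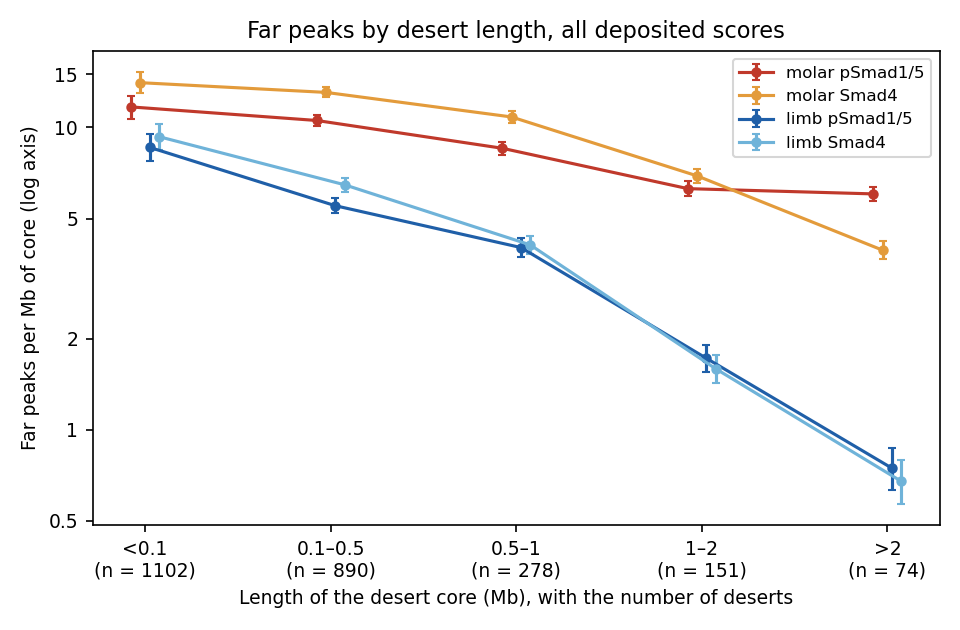
Far peaks per Mb of desert core (y axis, log scale) by the length of the core (x axis, with the number of deserts) for the 4 lists at all deposited scores; bars are exact 95% Poisson intervals. Molar pSmad1/5 goes from 11.7 to 6.03 per Mb between the shortest and the longest deserts, and limb pSmad1/5 from 8.59 to 0.747.

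Ranked by density instead, the leading deserts were short and several flanked developmental regulators. Asb1 to Twist2 on chromosome 1 came first among deserts with 5 or more far peaks, with 13 in 142 kb or 91.6 per Mb (48.8 to 156.7), 5.97 times its chromosome's level. Twist2 encodes a basic helix-loop-helix factor of mesenchyme, and the peaks lay 58.4 to 190.0 kb from it with scores of 2.07 to 3.04. Here 9 of the 13 lay on the Asb1 side of an empty stretch of 58.7 kb, and 6 of them formed a run of 19.5 kb around the lncRNA gene Gm28380. The other lists had 1 molar Smad4, 4 limb pSmad1/5 and 2 limb Smad4 peaks there.

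Gli2 to Inhbb, between a transcription factor of Hedgehog signalling and an activin subunit gene, held 16 far peaks in 261 kb, 61.3 per Mb (35.0 to 99.5). They were spread over the whole core, from 51.3 kb to 307.5 kb from Gli2, and none reached a score of 3 (range 2.01 to 2.996). Limb Smad4 had 14 peaks in this desert and molar Smad4 10. Limb pSmad1/5 had 0, as did molar pSmad1/5 at the score of 3 where the limb lists start. On chromosome 13 the desert from Ly86 to Rreb1, a zinc finger gene, held 18 far peaks at 69.4 per Mb (41.1 to 109.7), of which 4 scored 3 or more, with 0 limb pSmad1/5 peaks. The remaining dense deserts were Otos to Gpc1 (7 peaks, 84.6 per Mb), Mrps6 to Kcne2 (6, 74.8), Ephb3 to Vps8 (7, 70.1), Pdcl3 to Npas2 (6, 62.2), Gsc to Dicer1 (7, 61.1), Ankrd28 to Galnt15 (6, 61.1) and Nxnl2 to S1pr3 (8, 59.96). Gpc1 encodes a glypican of the cell surface, Ephb3 an ephrin receptor, Gsc a homeobox factor and S1pr3 a lipid receptor.

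Dense deserts were also ranked on the 12 autosomes listed down to a score of 3, where every listed peak has at least that score. Cstad to 1700001O22Rik on chromosome 2 held 5 far peaks in 86.6 kb (57.7 per Mb, 18.7 to 134.7), 17.4 times its chromosome's level. All 5 lay within 20.8 kb with scores of 5.84, 3.99, 3.57, 4.33 and 3.86, and the strongest, at chr2:30687364-30687454, had an authors' p-value of 7.91e-11. This desert held 13 limb pSmad1/5 and 9 limb Smad4 peaks too. Irf8 to Foxf1 on chromosome 8 held 7 far peaks at 30.7 per Mb (12.4 to 63.3), beside 17 limb pSmad1/5 and 15 limb Smad4 peaks. Foxf1 is a forkhead gene of mesenchyme, and the strongest far peak, with a score of 4.02, lay 66.4 kb from it. Tfap2c to Bmp7 held 6 at 28.7 per Mb (10.5 to 62.4), the highest of 4.11 at 62.5 kb from the ligand gene Bmp7, with 0 molar Smad4 peaks in the desert. The others were Lemd2 to Grm4 (6 peaks), Cebpb to Ptpn1 (5), Septin9 to Tnrc6c (6), Haao to Zfp36l2 (7), Gm30733 to Prex1 (5), 1600014C23Rik to Vegfa (5) and Lhx1 to Mrm1 (5). Vegfa encodes the growth factor of blood vessels, and its desert held 7 limb pSmad1/5 and 14 limb Smad4 peaks.

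**Figure D4:**
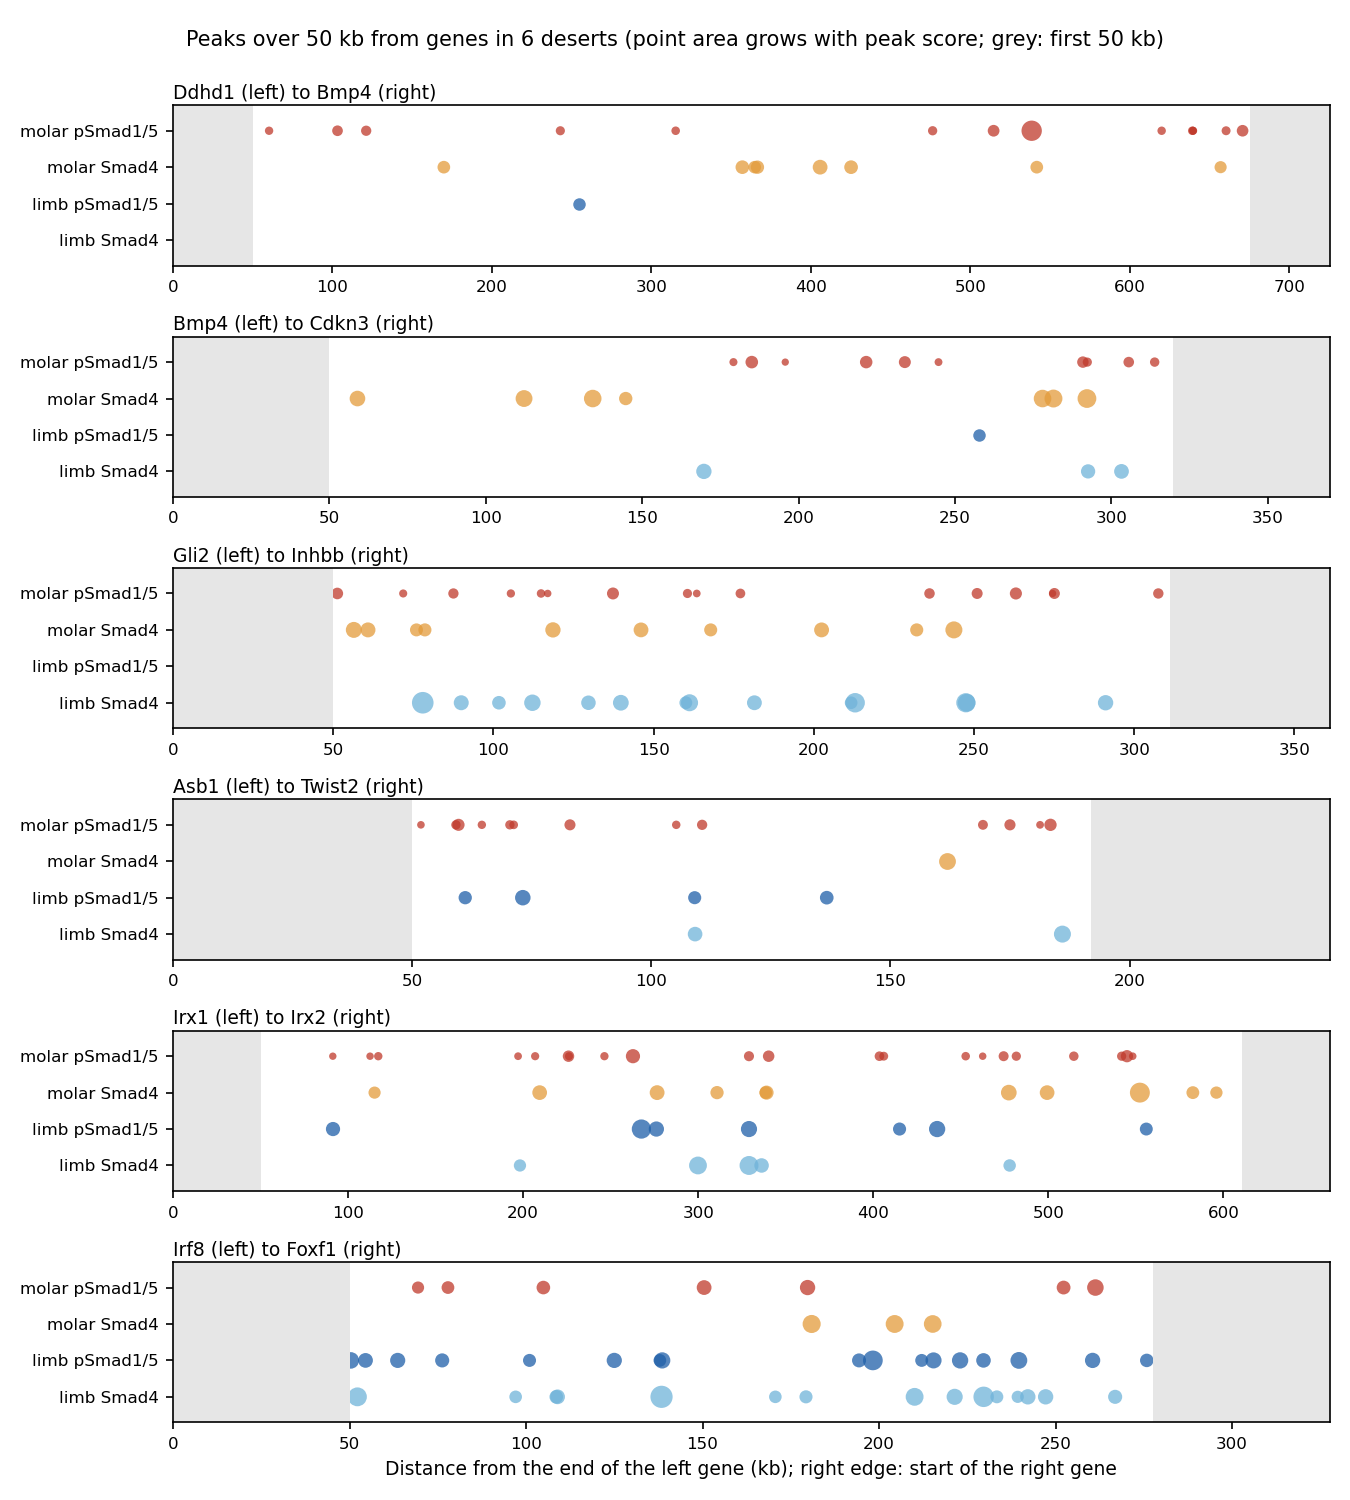
Summits of peaks over 50 kb from genes in 6 deserts, by distance from the end of the left gene (x axis, kb), with 1 line per list; point area grows with the authors' score and grey marks the 50 kb next to each gene. Far molar pSmad1/5 peaks number 14 and 10 on the sides of Bmp4, 16 in Gli2 to Inhbb (none of them of score 3, where the limb lists start), 13 in Asb1 to Twist2, 21 in Irx1 to Irx2 and 7 in Irf8 to Foxf1 where limb pSmad1/5 has 17.

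Genes of the BMP and TGF-beta pathway are described next by role. A chosen list of such genes had 27 members flanking a desert, of which 19 had a far peak in it, beside 58.3% of all 4104 genes that flank a desert. Their 32 deserts held 1.36 times (1.15 to 1.59) the far peaks that the level of their chromosomes gives, and 1.19 times (0.898 to 1.54) at a score of 3 or more. For molar Smad4 the ratio was 1.42 (1.21 to 1.65), for limb pSmad1/5 0.872 (0.641 to 1.16) and for limb Smad4 1.22 (0.952 to 1.55). Among the ligands, Bmp4 stood between 2 occupied deserts. Ddhd1 to Bmp4 held 14 far peaks, 9 of them within 250 kb of Bmp4, and Bmp4 to Cdkn3 held 10, none nearer to Bmp4 than 179.2 kb. On the Ddhd1 side the nearest lay 54.7, 65.0, 85.7, 85.8, 86.2 and 105.4 kb from Bmp4, with scores of 2.13 to 2.89. The strongest, at chr14:46196502-46196621 and 186.9 kb from Bmp4, had a score of 4.98 and an authors' p-value of 5.03e-11. On the Cdkn3 side scores reached 3.10, and 2 peaks lay in Rubie, a lncRNA gene named for its place upstream of Bmp4. Limb pSmad1/5 had 1 peak in each of the 2 deserts.

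Tgfb2, a TGF-beta ligand gene, faced the desert Lyplal1 to Tgfb2 with 20 far peaks at 49.3 per Mb (30.1 to 76.2), 11 of them within 250 kb of Tgfb2 and the nearest at 52.6 kb. The activin subunit gene Inhba had 12 far peaks, 11 of them in Inhba to Sugct, and Bmp2 had 3. Of the extracellular modulators, the follistatin-like gene Fstl5 faced 27 far peaks in the 2252 kb core of Fstl5 to Rapgef2, 0.843 times the chromosome level, and the activin antagonist gene Fst had 4. The receptor gene Acvr2a shared the 3597 kb core of Zeb2 to Acvr2a with 9 far peaks, and the Smad gene Smad2 shared Smad2 to Skor2 with 8. No far peak was present in Gm525 to Nog, where the BMP antagonist gene Noggin has its neighbouring desert and limb pSmad1/5 had 3 peaks and limb Smad4 4. This desert has a core of 107.6 kb on chromosome 11, which is listed down to 3 and held 3.42 far peaks per Mb.

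Of the 18 direct BMP-Smad targets of a chosen list that flank a desert, 12 had a far peak, and the ratio to the chromosome level was 1.40 (1.13 to 1.71). It was 1.16 (0.799 to 1.63) at a score of 3 or more and 1.01 (0.614 to 1.55) on the 12 autosomes alone. Beside the same genes molar Smad4 had 1.76 (1.46 to 2.10), limb pSmad1/5 1.81 (1.39 to 2.30) and limb Smad4 2.06 (1.62 to 2.58). Id2, an inhibitor of differentiation, had 23 far peaks in Id2 to Rnf144a. Of these 8 lay between 68.6 and 178.1 kb from Id2, and the strongest (3.92) lay 697.4 kb away. The desert also held 27 molar Smad4, 14 limb pSmad1/5 and 11 limb Smad4 peaks. Id4 had 20 in Rnf144b to Id4, with a top score of 4.69 at 374.5 kb, and 2 on its other side. Hes1, a Notch and BMP responsive repressor, had 13 in Opa1 to Hes1 at 43.0 per Mb and 3 in Hes1 to Cpn2. Msx2, a homeobox gene of dental mesenchyme, had 10 in Msx2 to Drd1, with scores of at most 2.52, where limb Smad4 had 13. Its relative Msx1, which the tooth bud requires, had 2 in Msx1 to Stx18, the nearer at 50.29 kb with a score of 3.40. These counts are not alike, since Msx1 lies on chromosome 5, listed down to 3, and Msx2 on chromosome 13, listed down to 2. At a score of 3 or more Msx1 had 2 and Msx2 0. Relative to their chromosomes the deserts stood at 5.05 for Msx1 and 1.36 for Msx2, on 2 and 10 peaks. Tbx3 faced 11 far peaks in Med13l to Tbx3, the nearest 210.1 kb away and the strongest of 4.15, and limb pSmad1/5 had 15 in that desert.

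Genes of the dental mesenchyme flanked more occupied deserts than the average gene. Of 29 listed genes beside a desert 24 had a far peak, and their 37 deserts held 205 far peaks, 1.52 times the chromosome level (1.32 to 1.75). The ratio was 1.72 (1.29 to 2.24) at a score of 3 or more, 2.18 (1.31 to 3.40) on the 12 autosomes, and 1.28 (1.11 to 1.47) when deserts were compared with others of like length. It was not higher than in limb: limb pSmad1/5 had 2.02 (1.60 to 2.51) and limb Smad4 2.47 (2.03 to 2.98) beside the same genes. Sox11, a high mobility group factor, had the most with 16 far peaks in Cmpk2 to Sox11 and 14 in Sox11 to Dcdc2c. Bmp4 (24), Gli2 (19), Sox5 (15), Twist2 (13) and Inhba (12) followed, and all of these genes lie on autosomes listed down to 2. No far molar pSmad1/5 peak was listed in Cd82 to Alx4, where limb pSmad1/5 had 8 peaks and limb Smad4 10, nor in Dlx2 to Itga6 or Clic5 to Runx2. These deserts lie on chromosomes 2 and 17, listed down to 3, with cores of 79.5, 140 and 116 kb. At 3.33 and 3.48 far peaks per Mb on these chromosomes, a core this short often holds none. Alx4, Dlx2 and Runx2 are regulators of facial mesenchyme and bone.

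Genes of the dental epithelium showed a similar ratio. Of 20 beside a desert 16 had a far peak, at 1.46 times the chromosome level (1.24 to 1.71) and 1.77 (1.32 to 2.33) at a score of 3 or more. It was not higher than in the other lists. Beside the same genes molar Smad4 had 1.59 (1.34 to 1.87), limb pSmad1/5 1.47 (1.09 to 1.95) and limb Smad4 2.11 (1.65 to 2.66). The homeobox gene Irx1 came first with 40, of which 19 lay in Adamts16 to Irx1 and 21 in Irx1 to Irx2. In Irx1 to Irx2 the far peaks were spread from 91.3 to 548.2 kb from Irx1, with a median spacing of 14.1 kb and a top score of 3.47. One of them, at chr13:72292647-72292821 with a score of 2.56 and near the middle of the gap, overlapped both a limb pSmad1/5 and a limb Smad4 peak. Sox2, a factor of epithelial progenitors, had 14 in Dnajc19 to Sox2 (top score 4.72 at 74.6 kb) and 21 in Sox2 to Atp11b. Fgf9 had 14, Lef1 8 and Bmp7 6.

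Beside limb patterning genes the level of far molar pSmad1/5 peaks depended on the scores counted. Of 28 such genes 23 had a far peak, and the ratio was 1.09 (0.908 to 1.30) for all far peaks, while limb pSmad1/5, listed down to a score of 3, stood at 1.96 (1.60 to 2.37) and limb Smad4 at 2.56 (2.15 to 3.01). At a score of 3 or more the molar ratio was 1.36 (1.04 to 1.74), and on the 12 autosomes it was 1.54 (1.13 to 2.05), with intervals that overlapped that of limb pSmad1/5. Shox2, also a gene of palate and limb, had 14 in Veph1 to Shox2, and En1 had 11 in En1 to Insig2, of which 6 scored 3 or more, where limb pSmad1/5 had 0. Gli3 had 9.

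Transcription factor families differed in the same measure. All 10 Sox genes beside a desert had a far peak, at 1.57 times the chromosome level (1.31 to 1.88) and 2.03 (1.47 to 2.74) at a score of 3 or more. Gene lists share members: Sox5, Sox9 and Sox11 were also in the dental mesenchyme list and Sox2 in the dental epithelium list. For forkhead genes 17 of 23 had one, at 1.32 (1.09 to 1.59), and at 1.95 (1.41 to 2.62) for a score of 3 or more, with Foxo1 (18), Foxp1 (12), Foxd1 (7), Foxf1 (7) and Foxl1 (6) among them. Foxl1 to 1700018B08Rik had 6 far peaks, the strongest of 4.77, beside 22 limb pSmad1/5 and 24 limb Smad4 peaks. Basic helix-loop-helix genes had 1.69 (1.42 to 2.01), and 1.31 (0.913 to 1.82) at a score of 3 or more. Homeobox and Pax genes had 58 of 78 and 1.30 (1.17 to 1.44).

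Neuronal adhesion and synapse genes often had far peaks yet at a density below the chromosome level. Of 70 such genes 65 had a far peak, with a median of 8 per gene, and the density was 0.803 times the chromosome level (0.755 to 0.853), and 0.691 (0.616 to 0.772) at a score of 3 or more. Against deserts of like length the ratio was 1.00 (0.942 to 1.06). Limb pSmad1/5 stood at 0.258 (0.215 to 0.307) beside the same genes and molar Smad4 at 0.562 (0.520 to 0.606). Vomeronasal and taste receptor genes, which stand in clusters and are used in sensory cells, had 7 of 77 with a far peak and a ratio of 0.233 (0.0855 to 0.507). Ribosomal protein genes, with paralogs such as Rpl10l and Rpl39l among them, had 7 of 10 with a far peak and a ratio of 1.40 (1.11 to 1.73). Of their 82 far peaks 33 lay in 1 desert, Rps24 to Zmiz1. Endothelial genes had 6 of 8 with a far peak and a ratio of 1.94 (1.41 to 2.60), led by Prox1 (16), Cdh5 (11) and Emcn (8). Of the others, Cldn5 and Sox17 had 4 each, Kdr 1, and Erg and Flt1 0. The 11 beside Cdh5 lay in a 1216 kb core shared with Cdh11. Of 5 muscle genes 3 had one, with a ratio of 0.908 (0.636 to 1.26) and 28 of the far peaks beside Mef2c. The part that vessel or muscle cells of the tooth germ have in the far peaks was not tested.

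**Figure D5:**
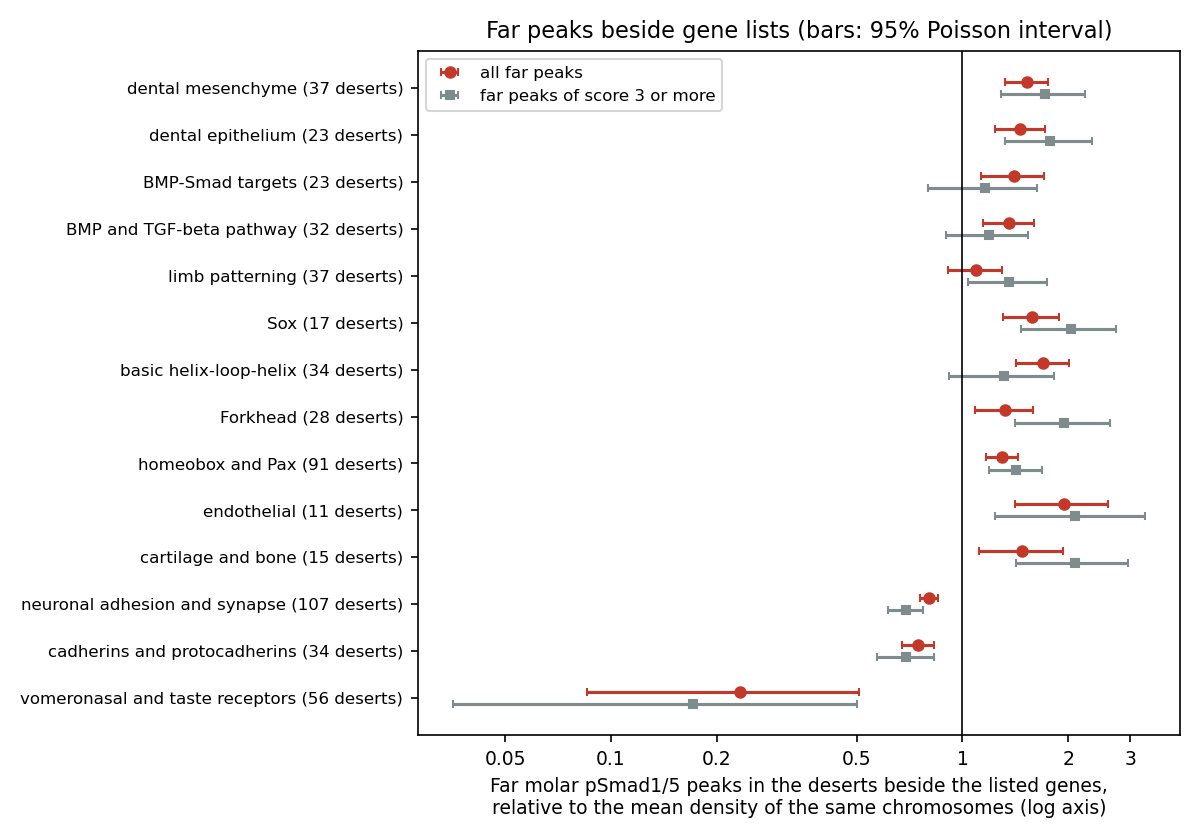
Far molar pSmad1/5 peaks in the deserts beside the genes of each list, divided by the number that the mean density of the same chromosomes gives (x axis, log scale), for all far peaks and for those with a score of 3 or more; bars are exact 95% Poisson intervals and the line marks 1. Dental mesenchyme (1.52) and dental epithelium (1.46) lie above 1 on both measures, limb patterning (1.09) spans it for all far peaks, and neuronal adhesion (0.803) and vomeronasal and taste receptors (0.233) lie below it.

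Far molar pSmad1/5 peaks seldom coincided with a site of another list. An overlap of at least 1 bp with a molar Smad4 peak was found for 24 of them, 0.346% (0.222 to 0.514%), against 0.612% of the other peaks and 0.558% of the whole autosomal list. With limb pSmad1/5 the count was 15, 0.216% (0.121 to 0.356%), against 1.35% of the others and 1.12% of the list. With limb Smad4 it was 21, 0.303% (0.187 to 0.462%), against 2.41% and 1.98%. A far peak was thus less often at a limb site than other peaks of the same list, and the limb intervals did not overlap. The limb lists themselves held few far peaks, 12.8% for pSmad1/5 and 10.6% for Smad4, against 20.4% for molar pSmad1/5. Few limb sites were therefore there to be met, and the overlap that chance gives in each zone was not tested. The lower share at limb sites held within both sets of autosomes for limb pSmad1/5 (0.205% against 1.16% and 0.253% against 1.61%) and for limb Smad4 (0.186% against 2.09% and 0.697% against 2.86%). For molar Smad4 the shares within the sets were 0.410% (0.257 to 0.621%) against 0.782% (0.651 to 0.931%) and 0.127% (0.0153 to 0.457%) against 0.369% (0.265 to 0.5001%), the second pair with intervals that overlapped. Any of the 3 lists was met by 58 far peaks, 0.836% (0.635 to 1.08%), and by 4.13% (3.89 to 4.37%) of the others. At a score of 4 or more in both lists no far peak overlapped a molar Smad4 or a limb pSmad1/5 peak.

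The far peaks that did coincide lay beside genes of several kinds. The highest by score were those between Chst1 and Syt13 (5.34, limb Smad4), Tmx1 and Frmd6 (4.53, molar Smad4), Cebpb and Ptpn1 (4.34, limb Smad4), Mn1 and Cryba4 (4.18, limb pSmad1/5) and Tmco5 and Spred1 (4.04, limb Smad4). Mn1 is a regulator of skull bone development and Spred1 an inhibitor of Ras signalling. The next 5 lay between L3mbtl3 and Arhgap18 (4.02), Vrk2 and Ccdc85a (3.94), Ndufb6 and Tmem215 (3.91), Dbpht2 and Kcnh5 (3.80) and Npvf and Gm38821 (3.75). Only 2 far peaks overlapped 2 lists: the one between Irx1 and Irx2, and one between Postn and Supt20 at chr3:54633479-54633656, which met molar Smad4 and limb Smad4 peaks. Postn encodes periostin, a matrix protein of the tissue that anchors teeth, and this peak lay 242.6 kb from it.

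At the scale of whole deserts the lists met far more often. Of the 1387 deserts with a far molar pSmad1/5 peak, 1119 also held a molar Smad4 peak, which was 80.7% of the former and 77.3% of the deserts with molar Smad4. For limb pSmad1/5 the shared number was 819 (59.0% and 77.2%) and for limb Smad4 838 (60.4% and 78.0%). Of all 2495 deserts, 58.0% held a far molar Smad4 peak, 42.5% a far limb pSmad1/5 peak and 43.1% a far limb Smad4 peak. A far molar pSmad1/5 peak was in 55.6% of them, and desert length was not matched in these shares. All 4 lists were present in 558 deserts, and 124 held far molar pSmad1/5 peaks alone, all counts being over the scores that each list holds. Of the 193 deserts with 10 or more far molar pSmad1/5 peaks 37 had no limb pSmad1/5 peak, of which Cntnap5b to Cdh20 (57), Ncam2 to Mrpl39 (45), Dsel to Cntnap5a (37), Gm40892 to Flrt2 (33) and Gm597 to Phf3 (30) were the fullest. Because the limb lists stop at a score of 3, only the 12, 8, 5, 6 and 6 of these peaks with a score of 3 or more can be set beside the limb counts. Osr1 to Nt5c1b, beside an odd-skipped factor of mesenchyme and named after its values were seen, held 16 far peaks with a top score of 3.94, and 0 in either limb list. Of these 16, 5 scored 3 or more.

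Some far peaks sat close to each other. Another far peak lay within 10 kb of 26.5% of them (25.5 to 27.5%). Of the whole autosomal list, far peaks included, 43.8% had any other peak of the list within 10 kb. Peaks near genes were not counted on their own. The share of far peaks with another far peak within 10 kb was 30.8% on the 7 autosomes and 12.03% on the 12. For far molar Smad4 peaks it was 29.1% (28.1 to 30.1%), for limb pSmad1/5 22.6% (21.1 to 24.2%) and for limb Smad4 26.7% (25.1 to 28.3%). At a score of 3 or more, where the limb lists start, the molar pSmad1/5 share was 10.9% (9.71 to 12.2%). Runs of 3 or more far peaks with at most 10 kb between neighbours numbered 168 and took in 553 peaks (7.97%), and 159 of these runs lay on the 7 autosomes. The largest had 6 peaks each: the run in Asb1 to Twist2 and one of 31.1 kb in Rtl1 to Dio3. That imprinted domain, which carries many microRNAs and small nucleolar RNAs, held 27 far peaks at 47.0 per Mb (31.0 to 68.3), beside 20 molar Smad4, 15 limb pSmad1/5 and 18 limb Smad4 peaks, and a further run of 5 lay 115.1 kb from Dio3. Beside the run in the Cstad desert, other runs of 5 lay in Nxnl2 to S1pr3, Nyap2 to Irs1, Hdac4 to Ndufa10, Gm52008 to Bcl11b (2 runs), Kif26a to A530016L24Rik and Pdcl3 to Npas2. Irs1 encodes the insulin receptor substrate and Bcl11b a zinc finger factor of T cells and tooth epithelium.

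Far from coding genes did not mean far from every annotated gene. Of the 6934 far peaks in deserts 1080, or 15.6% (14.7 to 16.5%), lay inside a lncRNA gene, and lncRNA genes covered 11.4% of the desert cores. The shares were 15.2% on the 7 autosomes and 16.8% on the 12. The lncRNA gene 2610307P16Rik, in Prl5a1 to Sox4, held 14 of them over 425 kb, Zmiz1os1 in Rps24 to Zmiz1 held 9, Gm46414 in Nxnl2 to S1pr3 held 8 and Gm34061 held 7. Zmiz1 encodes a coregulator of transcription, and its desert held 33 far peaks at 38.3 per Mb (26.4 to 53.8) beside 34, 24 and 29 peaks in the molar Smad4, limb pSmad1/5 and limb Smad4 lists. Antigen receptor loci, which RefSeq does not class as coding genes, took in 18 far peaks at Igk, 12 at Igh and 7 at Tcra. These loci are long, at 3171, 2751 and 1796 kb, and their densities were 5.68, 4.36 and 3.90 per Mb. The desert levels of their chromosomes 6, 12 and 14 were 12.2, 13.6 and 11.3 per Mb.

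With a score of 3 or more the fullest deserts were mostly not those with the largest counts over all scores. Among the fullest, Slc10a2 to Efnb2, beside an ephrin ligand gene, held 16 such far peaks, Auts2 to Castor2 14 and Nudt12 to Efna5 13. Pcdh7 to G6pd2 and Cntnap5b to Cdh20 held 12 each. In this order they stood at 1.32, 2.72, 1.07, 0.950 and 1.02 times the chromosome level at this score. Sdk2 to Rpl38, Med13l to Tbx3, Mki67 to Mgmt and Cdh11 to Cdh5 held 11 each, at 6.43, 3.87, 3.22 and 2.55 times that level. Auts2 to Castor2 also held the most far peaks of score 4 or more, 5, with a top score of 5.80. Rragc to Pou3f1, beside a POU factor gene, had 4 of that level among 8 far peaks. Fn1 to Mreg, beside the fibronectin gene, had 16 far peaks at 39.4 per Mb, of which 8 scored 3 or more and the strongest 5.08.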

How the data were processed

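ChIP-seq libraries of E13.5 molar tooth germ and limb were examined through 4 peak lists on mm10, 1 per tissue and antibody; the signal of the 2 input libraries was not used here. The authors deposited, for each peak, its position, summit, length, p-value and enrichment score; per the labels' protocols the peaks were called with BCP in its transcription factor mode. Whether the inputs served as controls, and the score's exact scale, are not given in the sources used here. The submitters' processing notes name bcl2fastq, Bowtie2, SAMtools, bedtools and deepTools without versions. The lists hold no read counts, so depth is unknown.

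Summits were placed against 20665 autosomal protein-coding genes of RefSeq GRCm38.p6, which shares mm10 coordinates; peaks over 50 kb away were kept. Deserts were gaps of over 100 kb less 50 kb at each side. Densities carry exact 95% Poisson intervals and shares exact Clopper-Pearson intervals; a list's ratio sets its desert peaks against the mean density of the same chromosomes. With 1 library per group no test between groups was possible. Overlap meant at least 1 bp, and a run meant summits at most 10 kb apart. Promoter windows and microRNAs came from RefSeq tables. Motifs were not counted at peaks outside promoter windows, since no genome was used here.

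The members and the 27 gene lists were chosen with earlier results of these data known. Named genes are those flanking the 10 highest-scoring members, the 10 deserts with most members, the 10 densest with at least 5 (all autosomes, and those listed down to a score of 3), the 10 highest-scoring overlapping members, the 10 largest runs, the 5 members on each side of 50 kb and up to 6 genes of each list with most far peaks; others, listed genes with few or no far peaks among them, were named after their values were seen, and a few genes are not reported here. The scripts used scipy 1.17.1, pandas 2.3.3, numpy 2.4.6 and matplotlib 3.10.9 under Python 3.11.15, and the steps were tested on simulated data. Alternatives changed the distance, the annotation, the score limit, the overlap, the window and the autosomes used.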

Additional observations from a re-analysis of the deposited data

How the results depend on the processing

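Over 16 results and 82 alternative values, 31 stayed close and 51 moved: for a count, close means within 1.5 times, and otherwise within the counting interval. Scores: at 3 or more and at 4 or more, far peaks numbered 2581 and 471, their share was 14.7% and 13.4%, their density 2.99 and 0.546 per Mb, and their median score less that of other peaks -0.0399 and -0.0410, with a width difference of 0 at both. Of the 10 fullest deserts 1 and 0 stayed in the first 10, and 0 did when ranked per Mb or relative to the chromosome. On the 12 autosomes listed down to 3 the share was 12.4%, the score difference -0.0309 and the width difference 0. Distance and annotation: the share was 26.1% over 25 kb, 14.8% over 100 kb and 21.2% with summits within 1 kb counted as 1. With all annotated genes it was 7.11%, from 2422 peaks, and the density in deserts between all genes was 6.23 per Mb. Overlap: with summits within 500 bp the shares at molar Smad4, limb pSmad1/5 and limb Smad4 were 2.15%, 0.951% and 1.41%. With 50% of the far peak covered they were 0.158% at molar Smad4 and 0.101% at limb Smad4. At a score of 3 or more limb Smad4 gave 0.504%; at 4 or more it gave 0.637%, and molar Smad4 and limb pSmad1/5 gave 0. Lists at 3 or more, at 4 or more and on the 12 autosomes: limb patterning 1.36, 0.855 and 1.54; neuronal adhesion 0.691, 0.621 and 0.644. Dental mesenchyme gave 1.86 at 4 or more and 2.18 on the 12 autosomes, dental epithelium 1.77 at 3 or more and 1.75 on the 12, and BMP-Smad targets 1.01 on the 12. Neighbours: 15.1% within 5 kb, 42.3% within 20 kb and 10.9% at a score of 3 or more. Chosen after seeing the data were the 12 autosomes for overlap (0.127% at molar Smad4, 0.697% at limb Smad4) and neighbours (12.03%), and deserts of like length for lists (dental mesenchyme 1.28, neuronal adhesion 1.00). The other changes in value have no tested cause beyond the fewer peaks or autosomes that an alternative keeps. The motif alternative was not run, since no genome was used here. No paired analysis was possible because each group held 1 library. With no read counts, how depth limits the lists is unknown.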

Other observations

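Several gene families outside the tooth and BMP lists had far molar pSmad1/5 peaks beside them. Collagen genes had them at 7 of 14 genes that flank a desert, with a ratio to the chromosome level of 0.771 (0.524 to 1.09), or 0.652 (0.443 to 0.925) against deserts of like length. Cadherin and protocadherin genes had them at 21 of 24, with 362 far peaks and a ratio of 0.749 (0.674 to 0.830), or 0.945 (0.850 to 1.05) against deserts of like length. Potassium channel genes had them at 28 of 38 and a ratio of 0.901 (0.764 to 1.06). Cartilage and bone genes stood above the chromosome level, at 9 of 11 and 1.48 (1.11 to 1.93), and their ratio at a score of 3 or more was 2.08 (1.42 to 2.96), while against deserts of like length it was 1.20 (0.906 to 1.57). T-box genes had 6 of 9 and a ratio of 1.26 (0.770 to 1.95), which was 1.85 (1.10 to 2.92) at a score of 3 or more, 0.260 (0.0315 to 0.938) on the 7 autosomes listed down to 2 and 2.20 (1.31 to 3.48) on the other 12. Developmental zinc finger genes had 41 of 52 and 1.17 (1.05 to 1.31), and 1.11 (0.923 to 1.32) at a score of 3 or more.

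Single strong peaks stood in deserts beside tooth and skeletal genes with few far peaks. Wnt7b to Ppara, beside a Wnt ligand gene of dental epithelium, had only 2 far peaks, but 1 of them had a score of 5.54. Ofcc1 to Tfap2a, beside a factor of neural crest, held 7 with a top score of 5.41. Sem1 to Dlx6, beside a homeobox gene of the jaw, held 2 with a top score of 5.07. Irx3 to Irx5 held 3 with a top score of 5.11. These strong peaks were picked after their values were seen and have no replicate.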
